A study of Mus musculus with 17 samples.

Results

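The WT1 peak list of adriamycin-injured glomeruli was set against that of podocytes purified at day 14 after adriamycin. Both lists of injured material are shorter than their vehicle counterparts, and the question was which WT1 sites they keep in common and which are kept in one and missing in the other. All 16634 peaks of the glomerular list and all 6694 peaks of the day 14 list entered, 23328 of the 107761 peaks in the 5 lists of the series. A peak was called matched when it overlapped a peak of the other list by at least 1 bp, counted in both directions.

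The glomerular group consisted of 4 libraries from glomeruli isolated from BALB/cJ mice given adriamycin (ADR in the labels), with no day stated. The day 14 group consisted of 2 libraries from podocytes purified from mTmG reporter mice, 14 days after ADR. In that strain a Cre recombinase active in podocytes marks these cells, and its genotype label is wildtype. All mice were 7 to 8 weeks old, and the same WT1 antibody was used throughout. Vehicle mice received phosphate-buffered saline (PBS), and a further podocyte group was taken at day 9 after ADR. Strain, preparation, day and number of libraries differed together between the 2 injured groups, so their parts in any difference cannot be told apart.

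WT1 is a transcription factor with zinc fingers on which podocytes depend for their development and upkeep. Podocytes are the epithelial cells whose interlocking foot processes cover the glomerular capillaries and complete the filtration barrier of the kidney. Isolated glomeruli also hold endothelial and mesangial cells, which purification of marked podocytes is meant to remove. Adriamycin (doxorubicin) injures podocytes and is a common way to produce proteinuria in mice, with BALB/c among the sensitive strains. In chromatin immunoprecipitation followed by sequencing (ChIP-seq), places where precipitated fragments pile up above a local background are called as peaks. The fold enrichment of a peak is its pileup relative to that background, and the caller's p gives the probability of such a pileup under that background.

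Each group was represented by 1 peak list, so there was no replicate error and no test between groups. Intervals are 95% Wilson intervals, which cover counting error only, since animals cannot be told apart within a list. The 3 other lists held 29082 peaks (PBS glomeruli), 23402 (PBS podocytes) and 31949 (day 9 podocytes). Glomerular ADR peaks covered 5.80 Mb with a median width of 303 bp, and day 14 peaks 2.75 Mb with 387 bp. Fold enrichment ran from 2.86 to 45.0 (median 7.26) in ADR glomeruli and from 1.70 to 59.2 (median 6.27) at day 14. Coordinates are 1-based in mm9. Fold enrichment is relative to each list's own background, so sites are compared between lists by their percentile within a list, where 100 is the strongest. Peaks were not assigned to genes, so the labelled cell types were not checked against marker genes.

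Most day 14 sites were also sites in ADR glomeruli. Of the day 14 peaks, 4885 of 6694 (73.0%, interval 71.9 to 74.0) overlapped an ADR glomerular peak, which left 1809. Of the ADR glomerular peaks, 4906 of 16634 (29.5%, 28.8 to 30.2) had an overlap at day 14, which left 11728. This second share is bounded by the short day 14 list, and when the ADR list was reduced to its 6694 most significant peaks the shares were 52.0% of day 14 and 51.8% of ADR glomerular peaks. The day 14 list overlapped the PBS glomerular list at 94.2% of its peaks. When the PBS glomerular list was shortened by caller p to the length of the ADR list, 87.0% (86.2 to 87.8) of day 14 peaks still had a match in it. At equal glomerular list length, day 14 podocytes thus shared more sites with vehicle glomeruli than with injured glomeruli. In the vehicle pair, 66.4% of PBS glomerular peaks had a PBS podocyte peak and 80.7% of PBS podocyte peaks had a PBS glomerular peak.

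The chance of a match rose with peak strength in ADR glomeruli and followed a U shape at day 14. In ADR glomeruli, 10.9% of the weakest decile by fold enrichment had a day 14 peak, 18.5% of the fifth decile, 54.2% of the ninth and 81.2% (79.2 to 83.0) of the strongest. Among day 14 peaks, 90.1% (87.7 to 92.2) of the weakest decile had an ADR glomerular peak, against 57.0% (53.2 to 60.7) of the fifth decile and 93.3% (91.1 to 94.9) of the strongest. Ranked by caller p, the U shape was gone, and the day 14 share rose from 50.3% in the weakest decile to 97.2% in the strongest. The share in ADR glomeruli rose from 6.85% to 82.6% by caller p.

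**Figure D1:**
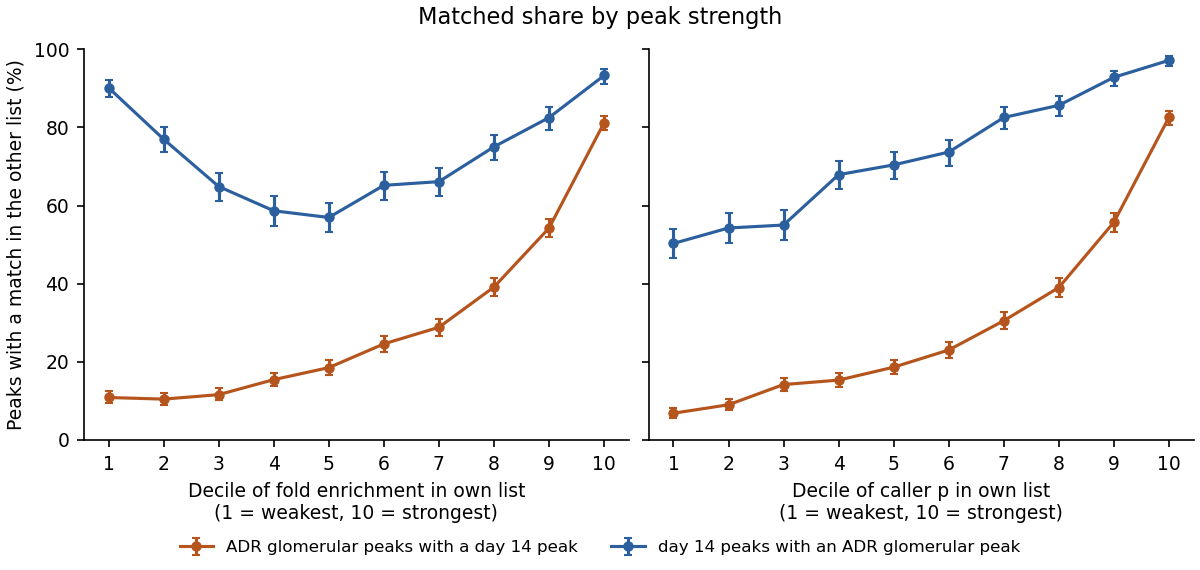
Share of peaks with a match in the other list (%, vertical axis) by decile of strength within the own list (horizontal axis), ranked by fold enrichment (left) and by caller p (right), with 95% Wilson intervals as bars. By fold the day 14 line falls from 90.1% to 57.0% and rises to 93.3%, while by caller p both lines rise.

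Strong sites of each list were mostly present in the other, but they were seldom the strong sites there. Of the 100 strongest peaks by fold enrichment, 99 in ADR glomeruli and 98 at day 14 had a match. Of the 1000 strongest, 882 (88.2%, 86.1 to 90.1) in ADR glomeruli and 902 (90.2%, 88.2 to 91.9) at day 14 had one. Yet 13 of the 100 strongest peaks of either list matched a peak among the 100 strongest of the other. For the 1000 strongest this number was 256 (25.6%) by fold, and 417 of the ADR glomerular and 418 of the day 14 peaks (41.7% and 41.8%) by caller p.

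Rank agreement of fold enrichment over the shared sites was weak. Each peak was paired with the peak of the other list that it overlapped most, and the 4862 pairs in which this choice was mutual were kept out of 4930 overlapping pairs. Over these pairs Spearman's rho was 0.150 for fold enrichment, 0.426 for caller p and 0.271 for width. These correlations describe regions of the same 2 lists, which are not independent replicates. The percentile of a pair in the 2 lists differed by a median of 28.4 points, with 22.6% of pairs within 10 points and 27.2% more than 50 points apart. Of the pairs more than 50 points apart, 1134 ranked higher in ADR glomeruli and 189 at day 14.

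Over all mutual pairs, the same measure was larger in each other pair of lists for which it was computed. It was 0.606 by fold and 0.693 by caller p for PBS glomeruli with PBS podocytes (18716 pairs), a comparison that also crosses strain and preparation. Between ADR glomeruli and day 9 podocytes it was 0.4005 and 0.535 (12882 pairs), and between PBS glomeruli and day 14 podocytes 0.401 and 0.576 (6251 pairs). To hold the sites constant, rho was taken over the 4581 regions with a peak in all 5 lists. On these, day 14 fold ranks had a rho of 0.870 with day 9 podocytes, 0.780 with PBS podocytes, 0.432 with PBS glomeruli and 0.145 with ADR glomeruli. ADR glomerular fold ranks had a rho of 0.315 with PBS glomeruli, 0.170 with PBS podocytes and 0.121 with day 9 podocytes. By caller p, ADR glomeruli stood at 0.418 to 0.439 with each of the 4 other lists. On these regions, which all had a day 14 peak, fold agreement of ADR glomeruli was thus low with all 3 podocyte lists, while over all mutual pairs it was higher with day 9 than with day 14. These values were not tested against each other, since they rest on the same lists.

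**Figure D2:**
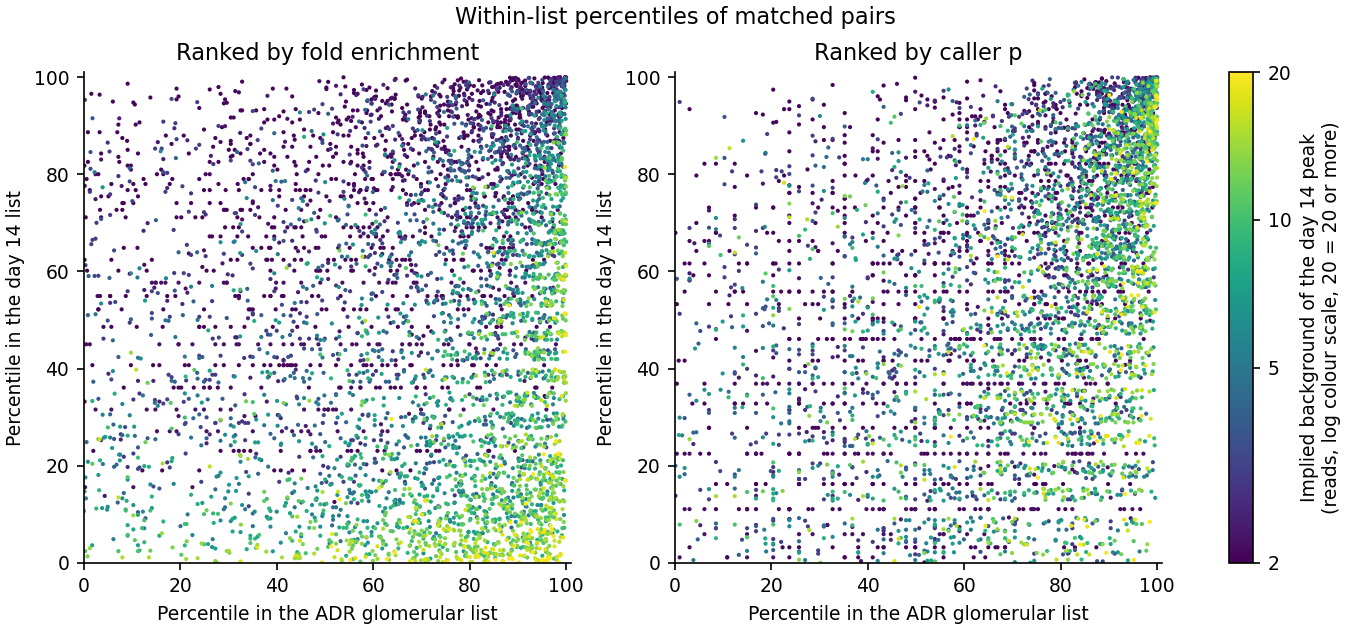
Each point is one of the 4862 mutual pairs, placed by its percentile in the ADR glomerular list (horizontal axis) and in the day 14 list (vertical axis), ranked by fold enrichment (left) or caller p (right). Colour gives the implied background of the day 14 peak in reads on a log scale. By fold, points of high background fill the lower right corner, where sites rank high in ADR glomeruli and low at day 14.

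The background on which a day 14 peak stood moved with both results. It was worked out for each peak of the podocyte lists from its fold enrichment and p, in reads after any scaling by the caller, and was not solved for the glomerular lists, where the solutions were not unique. At day 14 the commonest value among peaks with 1 solution was 2.06 reads, called the list-wide level here. It was set as the lower bound, so lower solutions were left out for all peaks. Values within 1% of it were given by 27.5% of peaks, and the median was 3.20 reads. A peak on a higher background needs a larger pileup for the same fold. The weakest day 14 decile by fold had a median background of 11.8 reads, a median pileup of 40.1 reads and a median −log10 p of 10.7. The fifth decile had 2.41 reads, 19.4 reads and 11.7. The strongest decile had 2.06 reads, 63.9 reads and 63.9.

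Day 14 sites on a high background were nearly all shared with ADR glomeruli, and those on the list-wide background were shared far less. Of the 1842 day 14 peaks at the list-wide level, 55.0% (52.8 to 57.3) had an ADR glomerular peak. The share was 59.5% above that level up to 3.5 reads, 81.3% from 3.5 to 5.5, 91.2% from 5.5 to 8.5, 95.9% from 8.5 to 12 and 97.0% (95.4 to 98.0) over 12 reads. Significance did not fall into the same order, with a median −log10 p of 18.2 in both the first and the last class and 13.96 in the class after the first. Median pileup nearly did, with 24.4 reads at the list-wide level and 22.2 in the next class, rising to 60.3 over 12 reads. When day 14 peaks were split into 3 equal groups by caller p, the lowest group rose from 31.7% at the list-wide level to 95.5% over 12 reads, and the highest group from 82.1% to 99.6%. The share of the same classes with a PBS glomerular peak ran from 90.6% to 98.5%, a narrower range. That list is longer, 29082 against 16634 peaks, and matched 94.2% of all day 14 peaks, which left less room to vary. The shortened PBS glomerular list was not split by class. The background was worked out from the day 14 fold and p, so at like p a high background means a low fold. The rise within the p groups is therefore not separate from the high share among the weakest day 14 peaks by fold. Whether background sets the match was not tested.

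**Figure D3:**
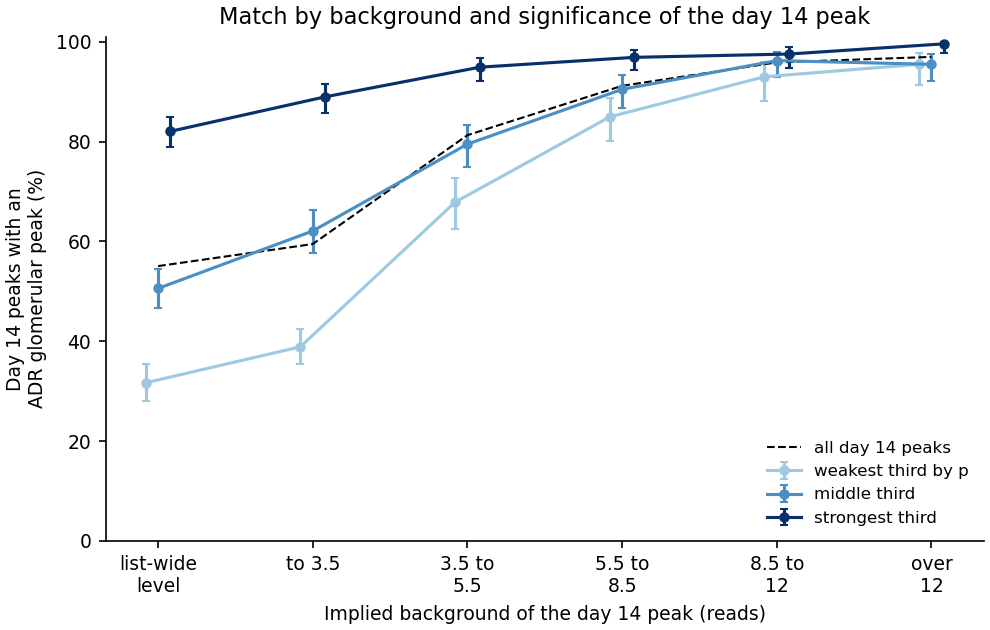
Share of day 14 peaks with an ADR glomerular peak (%, vertical axis) by implied background of the day 14 peak in reads (horizontal axis), for all day 14 peaks (dashed) and for 3 equal groups by caller p (blue lines, with 95% Wilson intervals). All 4 lines are higher on the right than on the left, the dashed one from 55.0% to 97.0%.

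Rank agreement by fold enrichment was higher among pairs of like background. Within the 6 background classes rho for fold enrichment was 0.394 to 0.473, against 0.150 over all pairs. For caller p it was 0.416 to 0.518, against 0.426 over all pairs. At a fixed background day 14 fold and p both follow the pileup, so the gain by fold is partly built in. Along the classes the median ADR glomerular percentile by fold rose from 66.1 to 88.6. The median day 14 percentile fell from 81.0 to 10.96, which is built in, since the background was worked out from the day 14 fold and p. Pairs more than 50 points higher in ADR glomeruli had a median day 14 background of 10.3 reads, and those more than 50 points higher at day 14 had 2.06 reads, where the day 14 fold again enters both measures.

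Shared peaks lay at closely the same positions. The summits of a pair were a median of 26 bp apart (quartiles 12 and 53 bp), and 73.6% of pairs were within 50 bp and 97.8% within 200 bp. With the pairs divided into 4 equal groups by day 14 caller p, summits were a median of 19 bp apart in the strongest group and 36 bp in the weakest. Day 14 peaks were the wider ones in 58.2% of pairs, with median widths of 411 bp at day 14 and 374 bp in ADR glomeruli. Few peaks were split, with 24 ADR glomerular peaks overlapping more than 1 day 14 peak and 44 in the reverse direction. Few sites missing from the other list lay within 1000 bp of a peak there, and no reference distance was computed. An unmatched ADR glomerular peak was a median of 57430.5 bp from the nearest day 14 peak, and 378 (3.22%) were within 1000 bp. An unmatched day 14 peak was a median of 27709 bp from the nearest ADR glomerular peak, and 78 (4.31%) were within 1000 bp.

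The sites ranked highest in both injured lists also stood high in the PBS and day 9 podocyte lists. The site with the highest lower percentile of the 2 lay at chr3:51719702-51720679 and had 41.1-fold enrichment in ADR glomeruli (rank 6) and 48.1-fold at day 14 (rank 3). It ranked 140 in PBS glomeruli, 5 in PBS podocytes and 6 at day 9. Next came chr10:121392773-121393288, with 36.2-fold in ADR glomeruli and 39.3-fold at day 14, and chr13:95033949-95034438, with 36.6-fold and 39.2-fold. The site at chr16:50786234-50786682 had the highest fold of the day 14 list, 59.2, and 36.1-fold in ADR glomeruli (rank 37). Over the 10 sites named by this rule, ADR glomerular fold was 30.5 to 41.1, day 14 fold 29.9 to 59.2 and day 14 background 2.06 to 4.35 reads. One of the 10, chr10:21118809-21119255, stood at percentile 99.7 in ADR glomeruli and 99.5 at day 14, against 75.2 in PBS glomeruli and 90.1 in PBS podocytes, and at 99.4 at day 9.

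Sites that ranked far apart are given as a description, since they were picked by their fold in the 2 lists and the background was worked out from the day 14 fold. The largest gap in favour of ADR glomeruli was at chr7:97624295-97624882, with 27.0-fold in ADR glomeruli (rank 261) and 2.40-fold at day 14 (rank 6682). Its day 14 peak stood on 22.7 reads, and its percentile was 91.8 in PBS glomeruli and 49.6 in PBS podocytes. The 10 sites of this kind stood at percentiles of 95.2 to 98.8 in ADR glomeruli and 0.0598 to 1.85 at day 14. Their day 14 backgrounds were 11.3 to 25.7 reads, and their percentiles were 33.6 to 67.6 in PBS podocytes and 67.2 to 92.8 in PBS glomeruli.

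In the opposite direction, the largest gap was at chr2:156996045-156996222, with 3.27-fold in ADR glomeruli (rank 16596) and 17.8-fold at day 14 (rank 314). The site at chr6:55599002-55599183 had 4.69-fold in ADR glomeruli (percentile 9.09) and 25.4-fold at day 14 (percentile 98.6), and stood at 98.4 in both vehicle lists. The 10 sites of this kind stood at percentiles of 0.225 to 10.3 in ADR glomeruli and 88.7 to 98.6 at day 14, on backgrounds of 2.06 to 3.58 reads. In PBS glomeruli the same 10 sites stood at 75.6 to 99.5. Their low place in ADR glomeruli was set by the rule that picked them, so nothing is concluded from this contrast.

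Sites kept in ADR glomeruli and missing at day 14 were weaker than the shared ones. Their median fold in ADR glomeruli was 6.52, against 10.9 at matched sites, and their median −log10 p 10.1 against 21.9. Most were sites of the other lists. Of the 11728, 8950 (76.3%) had a PBS glomerular peak, 7073 (60.3%) a PBS podocyte peak and 8423 (71.8%) a day 9 peak, where all ADR glomerular peaks gave 82.6%, 71.4% and 80.1%. A peak in each of the 3 other lists was present at 6055 (51.6%), in PBS glomeruli alone at 1295 (11.04%), in day 9 podocytes alone at 808 (6.89%) and in none at 1409 (12.01%). The 6747 that paired with a PBS podocyte peak stood there at a median percentile of 33.9 by fold and 50.3 by caller p. The 4671 matched ADR glomerular sites with such a pair stood there at 85.5 and 88.0.

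Some strong ADR glomerular sites were missing at day 14. Of the 118 missing among the 1000 strongest, 113 had a PBS glomerular peak, 100 a PBS podocyte peak and 115 a day 9 peak. Over all ADR glomerular peaks the shares were 82.6%, 71.4% and 80.1%. Shares over all of the 1000 strongest are not given here, so these counts do not set the missing sites apart. The strongest lay at chr8:122637628-122638109 with 34.6-fold enrichment (rank 46). It stood at percentile 90.4 in PBS glomeruli, 58.6 in PBS podocytes on 26 reads and 61.1 at day 9 on 23 reads. The next, at chr5:73246840-73247311, had 30.4-fold enrichment and stood at percentile 85.3 in PBS glomeruli and, at the list-wide background, 89.1 in PBS podocytes and 89.3 at day 9. The site at chr7:13563240-13563834 also had 30.4-fold enrichment, with percentiles of 96.7, 71.9 and 62.4 in the same order. The site at chr4:8437389-8437784 had 26.3-fold enrichment, stood at percentile 37.3 in PBS glomeruli and 56.1 at day 9, and had no PBS podocyte peak. The 10 strongest missing sites stood at percentiles of 98.3 to 99.7 in ADR glomeruli, 37.3 to 97.1 in PBS glomeruli and, for the 9 with a peak there, 30.7 to 89.1 in PBS podocytes.

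Sites kept at day 14 and missing in ADR glomeruli mostly had peaks in the other lists, though less often than all day 14 peaks. Of the 1809, 1793 (99.1%) had a day 9 peak, 1651 (91.3%) a PBS podocyte peak and 1533 (84.7%) a PBS glomerular peak, where all day 14 peaks gave 99.7%, 96.1% and 94.2%. A peak in each of the 3 other lists was present at 1489 (82.3%), in the 2 other podocyte lists without PBS glomeruli at 158 (8.73%), in day 9 alone at 102 (5.64%) and in none at 12. In fold enrichment at day 14 they were close to the shared sites, with medians of 5.95 against 6.45, but the median −log10 p was 11.96 against 20.4. The 1518 that paired with a PBS glomerular peak stood there at a median percentile of 77.7 by fold and 76.3 by caller p, against 86.8 and 88.4 at the 4733 matched sites with a pair. Another 276 had no PBS glomerular peak.

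The strongest day 14 sites missing in ADR glomeruli also ranked high in the other podocyte lists. They were picked by day 14 fold, so high ranks there do not mark missing sites. On regions with a peak in all 5 lists, day 14 fold had a rho of 0.780 with PBS podocytes and 0.870 with day 9. The first, at chr5:32370871-32371410, had 29.8-fold enrichment at day 14 (rank 53) and ranked 51 in PBS podocytes, 83 at day 9 and 3490 in PBS glomeruli. The next, at chr15:92107231-92107805, had 28.9-fold enrichment (rank 58) and ranked 118, 88 and 6298 in the same order. The third, at chr4:3630621-3631123, had 23.1-fold enrichment at day 14 (rank 130), ranked 395 in PBS podocytes and 119 at day 9, and had no PBS glomerular peak. The site at chr2:68918669-68919226 had 19.5-fold enrichment at day 14 (rank 228) and ranked 10 in PBS glomeruli and 48 in PBS podocytes. The 10 strongest of these sites stood at percentiles of 97.7 to 99.8 in PBS podocytes and, for the 9 with a peak there, 78.3 to 99.97 in PBS glomeruli. Of the 10, 9 stood at the list-wide background of 2.06 reads and the other at 2.82 reads. Of the 98 missing among the 1000 strongest day 14 peaks, 89 had a PBS glomerular peak and all 98 had both a PBS podocyte and a day 9 peak. Over all day 14 peaks the shares were 94.2% in PBS glomeruli, 96.1% in PBS podocytes and 99.7% at day 9. Shares over all of the 1000 strongest are not given here, so these counts do not set the missing sites apart.

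**Figure D4:**
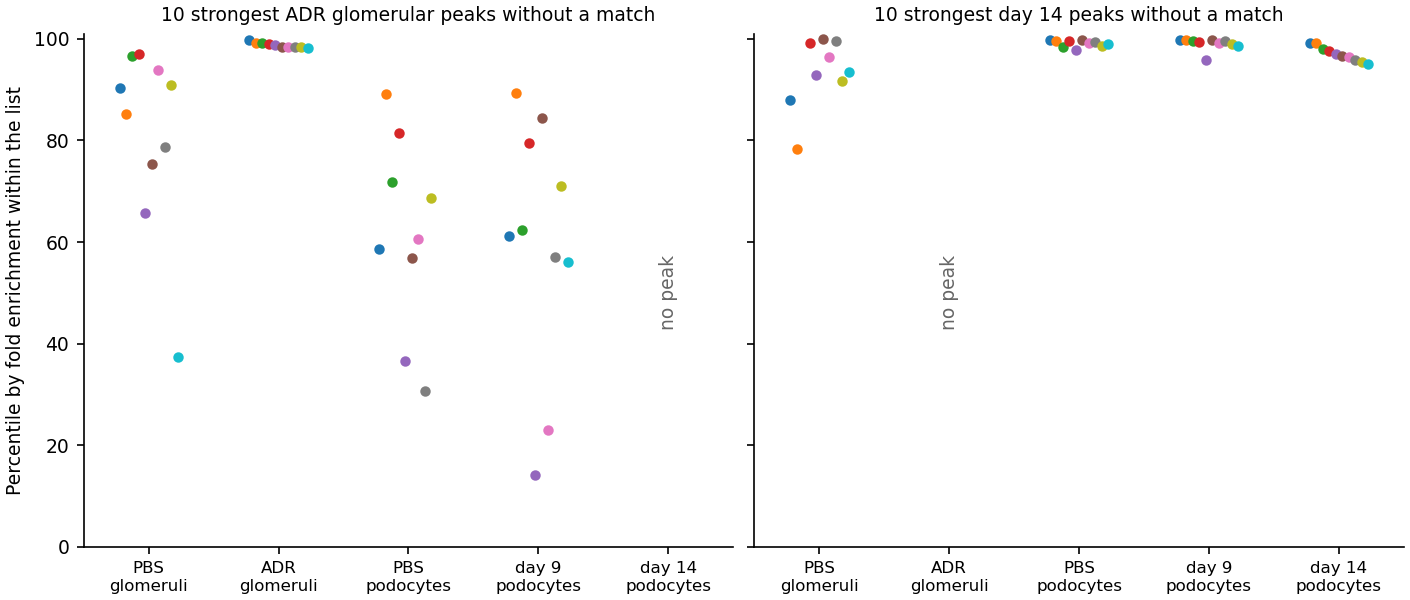
Percentile by fold enrichment within the list (vertical axis, 100 = strongest) in each of the 5 lists (horizontal axis) of the 10 strongest ADR glomerular peaks without a day 14 peak (left) and the 10 strongest day 14 peaks without an ADR glomerular peak (right), 1 colour per site within a panel. A site without a peak in a list has no point there. Sites on the left spread from 30.7 to 89.1 in PBS podocytes, and sites on the right all lie above 97 there.

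Sites shared by both vehicle lists gave a common starting set. Of the 18716 mutual pairs of PBS glomerular and PBS podocyte peaks, 10859 (58.0%) had an ADR glomerular peak and 6113 (32.7%) a day 14 peak. Both injured lists kept 4672 (24.96%, 24.3 to 25.6), ADR glomeruli alone 6187 (33.1%), day 14 alone 1441 (7.70%) and neither 6416 (34.3%). Sites in both were 76.4% of those kept at day 14 and 43.0% of those kept in ADR glomeruli. They stood at a median percentile by fold of 86.9 in PBS glomeruli and 85.5 in PBS podocytes. Sites kept at day 14 alone stood at 79.0 and 84.0, with a median PBS podocyte background of 2.15 reads, the list-wide level of that list. Sites kept in ADR glomeruli alone stood at 57.0 and 34.1, with a median PBS podocyte background of 9.35 reads. Sites kept in neither stood at 49.98 and 46.0, with 3.20 reads.

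The 2 injured lists kept these vehicle sites in opposite order of background. From the list-wide level to over 12 reads in PBS podocytes, the share with an ADR glomerular peak rose from 32.7% to 85.7% through all 6 classes. The share with a day 14 peak fell from 46.5% to 22.2%. The median PBS podocyte percentile by caller p was 49.98 to 60.9 in the 6 classes, with no such order. This background was worked out from the PBS podocyte fold and p, so at like p a high background means a low PBS podocyte fold. The order by background is therefore not separate from the shares by fold given below. Whether background sets which sites an injured list keeps was not tested. Over all PBS podocyte peaks, whether or not PBS glomeruli had them, the ADR glomerular share rose from 27.2% to 78.9%, and the day 14 share was 38.0% in the first class and 19.97% in the last. The PBS glomerular share was 69.5% to 90.01% and the day 9 share 82.6% to 89.2% over the same classes. By fold in PBS podocytes, 65.7% of the weakest decile of vehicle sites had an ADR glomerular peak and 0.481% a day 14 peak. In the fourth decile the shares were 45.2% and 7.69%, and in the strongest 78.0% and 96.0%. By caller p both rose, from 36.0% to 91.1% in ADR glomeruli and from 2.30% to 98.4% at day 14.

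**Figure D5:**
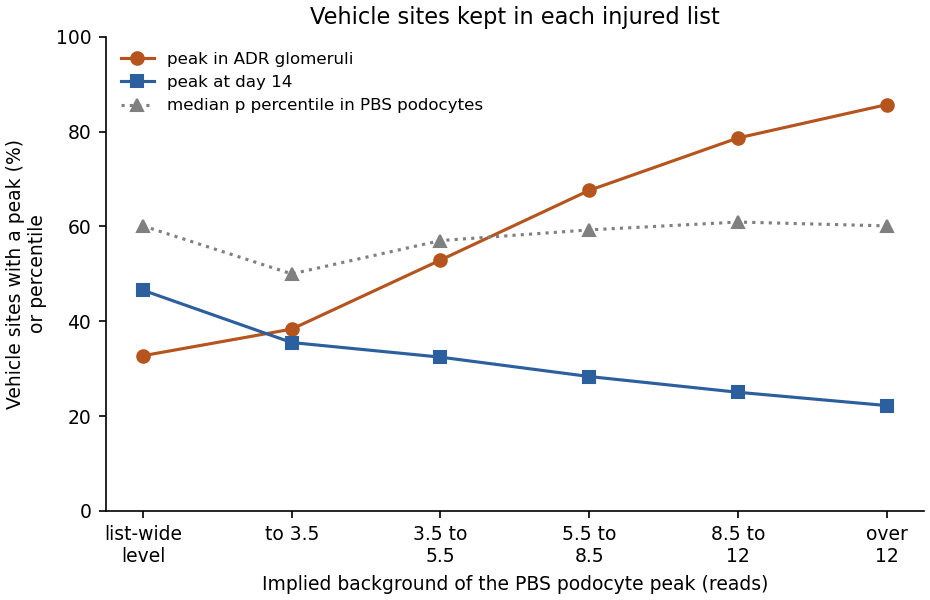
Share of the sites common to PBS glomeruli and PBS podocytes that had a peak in ADR glomeruli (orange) or at day 14 (blue), in % on the vertical axis, by implied background of the PBS podocyte peak in reads (horizontal axis). The orange line rises from 32.7% to 85.7% and the blue line falls from 46.5% to 22.2%, while the median caller p percentile of these sites in PBS podocytes (grey, on the same scale of 0 to 100) has no such order.

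Matched and missing sites occurred on every chromosome with peaks in both lists. On autosomes the matched share ran from 24.6% (chromosome 11) to 34.5% (chromosome 13) in ADR glomeruli and from 66.9% (chromosome 1) to 78.1% (chromosome 7) at day 14. On the X chromosome it was 40.5% (34.6 to 46.7) of 247 ADR glomerular peaks and 64.7% (56.9 to 71.8) of 153 day 14 peaks. The 3 day 14 peaks on the mitochondrial chromosome had no ADR glomerular peak.

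Peaks of both lists were also counted in windows along the genome. In windows of 100 kb, 8253 held a peak of either list, 3712 of both, 3951 of ADR glomeruli alone and 590 of day 14 alone. Of the 72 windows with at least 10 ADR glomerular peaks, 2 had no day 14 peak, and the median day 14 count was 3. These windows were picked for their ADR glomerular count, and the day 14 list is the shorter one, 6694 against 16634 peaks. The densest, chr2:167600001-167700000, held 20 ADR glomerular and 0 day 14 peaks, with 16 in PBS glomeruli and 9 in PBS podocytes. Next came chr4:132600001-132700000 with 19 and 6, chr10:79600001-79700000 with 18 and 8 and chr18:36000001-36100000 with 17 and 2. The window chr9:63500001-63600000 held 15 ADR glomerular and 3 day 14 peaks, with 17 in PBS glomeruli and 11 in PBS podocytes. The window chr10:80800001-80900000 held 14 and 3, with 18 and 14 in the vehicle lists. The most day 14 peaks lay in chr11:98600001-98700000, with 9 against 11 in ADR glomeruli. The largest excess at day 14 was in chr5:73600001-73700000, with 8 day 14 peaks against 3 in ADR glomeruli, 17 in PBS glomeruli and 12 in PBS podocytes. The window chr14:22900001-23000000 held 5 day 14 peaks and 1 ADR glomerular peak, with 10 and 9 in the vehicle lists.

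Peaks found in 1 injured list and in no other list were weak. The 1409 of ADR glomeruli had a median fold of 5.64 and a median width of 228 bp, and 149 of them had a −log10 q of at least 10. The strongest lay at chr1:93713056-93713504 (18.5-fold, rank 1066) and chr11:94947126-94947487 (17.3-fold, rank 1285). The 12 of day 14 had 2.79-fold to 5.72-fold enrichment, and none reached a −log10 q of 10. Of these, 4 lay in the window chrX:47900001-48000000, where the other 4 lists had no peak.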

How the data were processed

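WT1 ChIP-seq was made from 4 ADR glomerular and 2 day 14 podocyte libraries, among 17 samples. Per the labels' protocols, glomeruli of 2 kidneys served each immunoprecipitation. For reporter mice the protocols state 3 experiments, but the labels name 2 day 14 libraries. The 2 input libraries came from glomeruli. The submitters' processing notes name Bowtie 0.12.7, MACS2 and the genome build mm9. Pooling of libraries, control, duplicate handling and cutoff were not given in the sources used here. Library read totals were not used here, so depth is not known.

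The authors deposited 1 narrowPeak list per group. Its fold enrichment, a ratio over the background, and its −log10 p and −log10 q are the authors' deposited values and were used to rank or filter peaks within a list. No result used the deposited score column. Smallest −log10 q was 1.31 in ADR glomeruli and 2.25 at day 14, so the lists reach different depths of significance.

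Matching, pairing, percentiles and 95% Wilson intervals were computed in Python 3.11.15 with numpy 2.4.6, pandas 2.3.3 and scipy 1.17.1, and figures with matplotlib 3.10.9. Implied background took fold as pileup plus 1 over background plus 1, with p the upper Poisson tail beyond the whole part of the pileup. This form is inferred, and it, the 6 background classes and the trimmed PBS list were chosen after the data were seen. It gave 1 solution for 75.6% of day 14 peaks, and solutions of the others differed at most 1.18 times. On simulated data, overlap and background code recovered the known answers within the tolerance set. The simulated fold and p were made with the same inferred form, so this cannot check that form. Sites named are the 10 strongest unmatched peaks of each list, the 10 pairs ranked highest in both, the 10 with the largest percentile gap each way and 5 windows for each of 4 window rules. The text gives the leading ones. The lists compared and the tests were chosen with earlier results of these data known. Genes, genomic location and WT1 motifs were left out, since no annotation or genome of the files' build was used here.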

Additional observations from a re-analysis of the deposited data

How the results depend on the processing

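No paired analysis was possible because libraries were merged into 1 list per group, and leaving out a replicate was impossible for the same reason. Of 33 alternative values, 15 stayed within the interval of the value reported, 18 moved and 0 changed sign. Most of them are shares, which cannot change sign, so the count of sign changes bears only on the rank correlations. Of the 33, 1 was chosen after seeing the data. For the share of day 14 peaks with an ADR glomerular peak (73.0%), summits within 200 bp gave 71.2%, −log10 q of at least 10 gave 64.8% and trimming to equal length by caller p 52.0%. For the reverse share (29.5%) these gave 28.7%, 40.0% and 51.8%. Few peaks overlapped more than 1 peak of the other list, so lists of equal length had to give nearly equal shares. The lost gap between the directions is therefore built in, and nothing is concluded from it. The 51.8% refers to the 6694 most significant ADR glomerular peaks, while over the whole list the share was 29.5%. Trimming leaves only the most significant ADR glomerular peaks, which by construction lowers the first share. The rank correlation of fold (0.150) was 0.0705 with the stricter q, 0.426 by caller p and, as the added alternative, 0.394 over day 14 peaks at the list-wide background. Among the 500 strongest, 94.0% of ADR glomerular and 94.6% of day 14 peaks had a match, and 96.3% of the 1000 strongest day 14 peaks by caller p. For ADR glomerular peaks without a day 14 peak, overlap of 50% of the shorter peak gave 59.2% in PBS podocytes and 70.8% at day 9, and the stricter q 69.3% and 81.5%. For day 14 peaks without an ADR glomerular peak, the stricter q gave 96.0% in PBS podocytes and 99.7% at day 9. Where not stated, the cause was not tested. The planned gene, location and motif results were not run. Peaks below each list's cutoff were not seen, so a missing peak does not show absent binding, and read depth was not known.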
